A study of Homo sapiens with 16 samples.

Results

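KMS18, a human myeloma cell line, was set against MM.1s and RPMI8226, myeloma cell lines that express the transcription factor MAF, to find the genes that separate KMS18 from each of them. The comparison used 12 of the 16 libraries of the series: 4 of KMS18, 4 of MM.1s and 4 of RPMI8226, chosen by line and not by any measured value. Within each line, 1 library was made with the empty pLK0.1 vector (Vec) and 1 each with short hairpin RNA (shRNA) against Gapdh, a control, CD28 or CD86, so that every shRNA occurs once per line and was fitted as a block. No overexpression construct is labelled in these 12 libraries. The 4 libraries of RPMI8226 made to overexpress Mcl1 were left out. Each line is a single established line, and nothing says that its 4 libraries came from separate cultures, so a p-value describes the spread of libraries within these lines and nothing wider. Messenger RNA was sequenced from total RNA. The libraries had 4000275 to 5900955 reads in genes (4311353 to 5507270 in KMS18). Values are FPKM, which scales reads by gene length and library size, listed in the order Vec, Gapdh, CD28 and CD86 shRNA. A difference is KMS18 minus the other line in mean log2(FPKM + 1), with its standard error (SE). Means are given ± SD over the 4 libraries of a line (n = 4). On this scale the change of genes with low values is understated.

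Myeloma is a cancer of plasma cells, and many of its tumours carry a translocation that moves an oncogene next to an immunoglobulin gene. In 1 class of these, FGFR3 and its neighbour NSD2 (WHSC1 in this table), a histone H3 lysine methyltransferase, come under immunoglobulin enhancers, and in another the gene is MAF. FGFR3 is a receptor tyrosine kinase that binds fibroblast growth factors and signals through FRS2, RAS and the MAP kinases. MAF is a leucine zipper transcription factor that is known in myeloma for raising a D-type cyclin, an integrin and a chemokine receptor (CCND2, ITGB7 and CCR1).

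The given markers of the lines separated them without overlap. FGFR3 was measured at 539, 661, 448 and 649.9 FPKM in KMS18, at 0.395, 0.211, 0.184 and 0.132 in MM.1s and at 0.251, 0.324, 0.683 and 0.491 in RPMI8226. All 4 KMS18 libraries lay far above the other 8, none of which reached 1 FPKM. MAF was measured at 0.0440, 0.103, 0.0548 and 0.104 FPKM in KMS18, at 159.7, 182, 131 and 166 in MM.1s and at 242, 261, 199.8 and 217 in RPMI8226. The order was the opposite of that of FGFR3: each KMS18 library held 2 to 4 reads of MAF, fewer molecules if the reads of a pair were counted separately, and each of the other 8 had at least 131 FPKM. The difference in FGFR3 was 8.86 (SE 0.15) from MM.1s and 8.64 (SE 0.15) from RPMI8226, with limma adjusted p of 5.31e-12 and 6.76e-12. That in MAF was -7.21 (SE 0.08) from MM.1s and -7.74 (SE 0.08) from RPMI8226, with limma adjusted p of 4.39e-13 and 2.98e-13. Plasma cell genes were present in KMS18: SDC1, a heparan sulphate proteoglycan that marks plasma cells, ranged from 59.7 to 181 FPKM, the plasma cell transcription factor PRDM1 from 23.9 to 45.4 and TNFRSF17, the B cell maturation antigen, from 377 to 471. Markers of other cell types were low in KMS18. Over 10 T cell markers the summed level was 2.40 to 10.4 FPKM per library in KMS18, 15.1 to 26.3 in MM.1s and 259 to 297 in RPMI8226, where CD8B, a co-receptor chain, alone made 258 to 295, with 5, 3 and 5 of the 10 at 0 in a whole line. CD3D was at 0 in all 12 libraries, while CD3E, a chain of the same receptor complex, ranged from 1.08 to 7.21 FPKM in KMS18. Over 10 myeloid markers the sums were 0.826 to 1.84, 6.80 to 14.8 and 42.6 to 50.2 FPKM in the same order, of which the macrosialin gene CD68 made 0.386 to 0.813, 6.15 to 14.6 and 41.5 to 48.5, with 7, 6 and 4 of the 10 at 0. Over 10 stromal and endothelial markers no library passed 3.38 FPKM, and in KMS18 the sum was at most 0.590 with 7 at 0. In bulk RNA of this kind, fewer cells of a type and less RNA per cell cannot be told apart. Each shRNA target was lowest in the library of its own shRNA in each line. In KMS18 GAPDH was at 133 FPKM there against 1196 to 1387 in the other 3 libraries, CD28 at 32.4 FPKM against 45.8 to 48.9 and CD86 at 1.10 against 2.49 to 3.45.

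**Figure D1:**
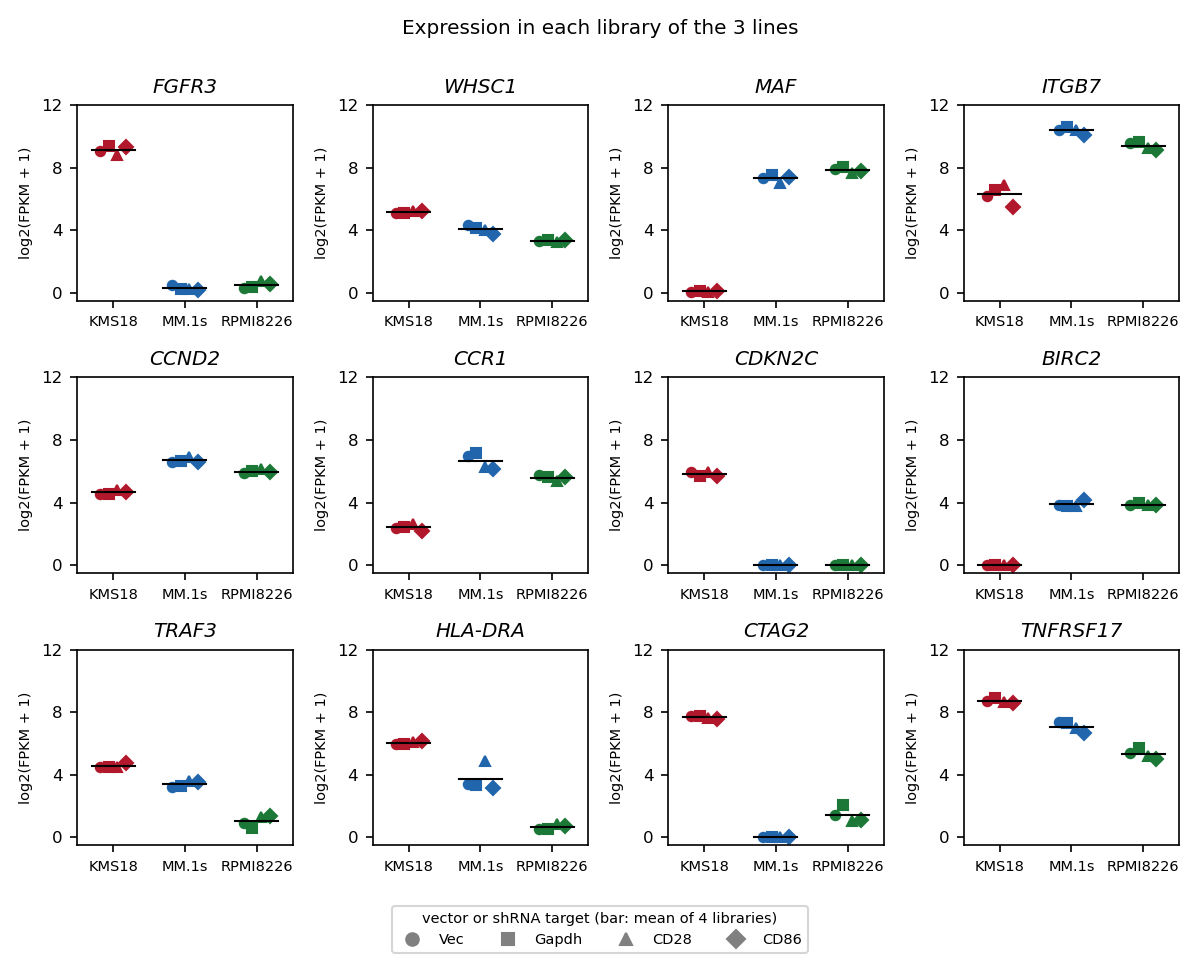
Expression of 12 genes in each library, as log2(FPKM + 1) on the vertical axis, by line on the horizontal axis; the symbol shows the vector or shRNA target and the bar the mean of the 4 libraries of a line. FGFR3 and CDKN2C lie high in KMS18 and near 0 in the other lines, and MAF and BIRC2 the reverse.

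The test covered the 11316 genes that averaged 1 FPKM or more in these 12 libraries. At an adjusted p under 0.05, limma called 7387 (65.3%) between KMS18 and MM.1s, 3486 (30.8%) higher and 3901 (34.5%) lower in KMS18. Between KMS18 and RPMI8226 it called 7958 (70.3%), 3986 (35.2%) higher and 3972 (35.1%) lower. Against the mean of the other lines it called 7867 (69.5%), 3779 (33.4%) higher and 4088 (36.1%) lower. A gene is said here to separate KMS18 when both single-line comparisons passed in the same direction. This held for 4402 genes (38.9%), with 2157 (19.1%) higher and 2245 (19.8%) lower in KMS18, and for 1174 (10.4%) with a difference of at least 1, which is 2-fold on this scale, from both lines. Those 1174 comprised 529 higher (4.67%) and 645 lower (5.7%) genes, and 1163 of them had the same direction in all 8 comparisons of a KMS18 library with the library of the same shRNA in another line. As the genes were chosen on these same libraries, that agreement is largely built in and is no separate support. By limma-voom on reads recovered from the FPKM, 677 were higher and 997 lower by at least 1. The count on the FPKM scale was 797 (7.04%) for MM.1s and 1425 (12.6%) for RPMI8226 set apart from their other lines, so KMS18 stood between them. These shares are the background for the counts of each list given next, in which higher and lower refer to KMS18 against both lines. A member that averaged under 1 FPKM in KMS18, or in the other 8 libraries, passed the filter only through the other side. Its direction between KMS18 and the mean of the other 8 was thus fixed, though not a call against both lines. The number of such members is given where it bears on a count. Between library pairs, 22.5% to 26.2% of genes were at least 2-fold apart for KMS18 and MM.1s and 27.7% to 30.2% for KMS18 and RPMI8226, while for MM.1s and RPMI8226 the share was 24.4% to 27.2% and within KMS18 it was 0.946% to 3.21%. KMS18 libraries had reads in fewer genes, 13479 to 13707 against 14018 to 14648 in the other lines.

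**Figure D2:**
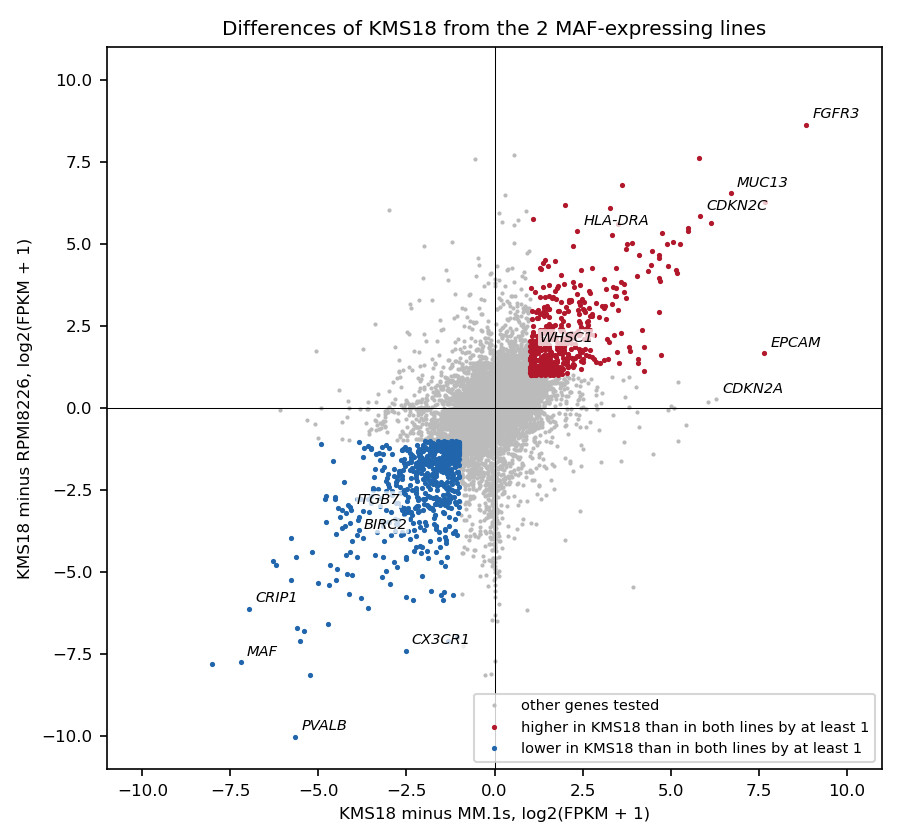
Each point is 1 of the 11316 genes tested, with its difference between KMS18 and MM.1s on the horizontal axis and between KMS18 and RPMI8226 on the vertical axis, both in log2(FPKM + 1). FGFR3 lies at the upper right end and MAF and PVALB at the lower left, and CDKN2A lies on the right near the horizontal line, as a gene near 0 in MM.1s only.

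Of all genes tested, 14.2% were higher and 14.9% lower in KMS18 with no overlap between its 4 libraries and the other 8. Among those higher, FGFR3 had the largest difference from the nearer line (8.64), and the next 11 ranged from 6.55 to 4.76. They were MUC13, an epithelial mucin, the cancer-testis antigens CTAG2, MAGEA6 and MAGEA3, the cell cycle inhibitor CDKN2C, the calcium sensor NCALD, the lymphocyte inhibitory receptor BTLA, the immunoglobulin superfamily glycoprotein CD200, the zinc finger gene ZXDB, the microvillus actin-binding protein VIL1 and the antisense RNA DPP10-AS1. MUC13 was measured at 99.4, 113, 119 and 85.4 FPKM in KMS18, was at 0 in all MM.1s libraries and reached at most 0.248 in RPMI8226. Its mean in KMS18 was at least 2376-fold higher than in MM.1s, with 3 reads over the 4 MM.1s libraries as the floor. NCALD was at 187, 173, 205 and 215 FPKM in KMS18, at 1.67 to 3.47 in MM.1s and at 0 in RPMI8226. BTLA and CD200, consecutive on chromosome 3 among the genes tested, averaged 45.3 ± 7.53 and 33.8 ± 6.48 FPKM in KMS18 and did not pass 0.136 FPKM in any other library. DPP10-AS1 was counted without a stated strand setting, so its reads cannot be told from those of genes it overlaps.

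The 12 genes lower in KMS18 by the same rule ranged from -7.81 to -4.73 from the nearer line. PCP4, a small calmodulin-binding protein, led the order: it was at 0 in all KMS18 libraries, at 257, 261, 223 and 303 FPKM in MM.1s and at 246, 200.3, 203 and 248 in RPMI8226. That is at least 1119.7-fold and 962-fold lower in KMS18, with a floor of 3 reads over its 4 libraries. CRIP1, a LIM domain protein, PVALB, a calcium buffer, TCN2, the vitamin B carrier transcobalamin, and NKD2, an inhibitor of Wnt signalling, were also at 0 in all KMS18 libraries. PVALB was the most abundant of these in RPMI8226, at 1051, 1052, 1052 and 978 FPKM, against 36.6, 46.1, 65.4 and 53.7 in MM.1s. After PCP4, MAF had the next largest difference. The others were LSP1, an actin-binding protein of leukocytes (0.365 to 0.692 FPKM in KMS18, 67.4 to 84.7 in MM.1s, 155 to 167 in RPMI8226), the tetraspanin CD9, biliverdin reductase BLVRA, the actin regulator MARCKSL1, the growth factor binding protein IGFBP3 and the RAS association domain gene RASSF4. For all 24 leading genes the highest limma adjusted p in either comparison was 3.35e-09. They were picked for passing both comparisons with the largest differences, so a low p follows from the choice and adds no support. Several of the higher genes, such as FGFR3, CDKN2C, BTLA and CD200, averaged under 1 FPKM in the other lines and passed the filter only through KMS18. Several of the lower genes, such as MAF, PCP4 and CRIP1, passed it only through the other lines.

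FGFR3 was nearly alone among its family. Of 29 FGF receptors, coreceptors and ligands, 6 passed the expression filter and 2 separated KMS18, both higher: FGFR3 and the ligand FGF9. FGF9 was measured at 6.81, 6.76, 5.74 and 5.89 FPKM in KMS18, at 0.0775, 0.276, 0.813 and 0.647 in MM.1s and at 2.83, 2.86, 2.99 and 2.89 in RPMI8226. Every KMS18 library was above every library of the other lines, by less than for FGFR3: the difference was 2.36 (SE 0.15) from MM.1s and 0.90 (SE 0.15) from RPMI8226, with limma adjusted p of 1.98e-07 and 0.000300. FGFR1 did not pass 0.368 FPKM in any library. FGFR2 was at 0 in KMS18, at 0.533 to 0.840 FPKM in MM.1s and at 1.52 to 1.79 in RPMI8226. It was thus lower in KMS18 than in every other library, but it fell below the filter and was not tested. FGFR4 was at 0 to 0.492 FPKM in KMS18, 0.0794 to 0.423 in MM.1s and 2.56 to 4.87 in RPMI8226. The decoy receptor FGFRL1 was at 0 in MM.1s, 6.89 ± 1.11 FPKM in KMS18 and 11.6 ± 1.23 in RPMI8226, between which KMS18 was the lower (-0.68, SE 0.11, limma adjusted p = 0.000226). FGF2 was close to the MM.1s level in KMS18, at 2.69 ± 0.800 against 2.23 ± 0.493 FPKM, a difference of 0.18 (SE 0.17, limma adjusted p = 0.387).

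Of 24 adaptors and RAS-MAPK genes of the chain below the receptor, all tested, 1 was higher (NRAS) and 6 (25%) were lower in KMS18 than in both lines, near the 19.8% of all genes that were lower, with median differences of -0.24 from MM.1s and -0.14 from RPMI8226 beside -0.02 and 0.01 over all genes tested. NRAS, a RAS GTPase, was measured at 48.9, 53, 48.4 and 45.2 FPKM in KMS18, 27.8, 29.9, 20.6 and 29.6 in MM.1s and 17.7, 16.5, 18.5 and 18 in RPMI8226. Its KMS18 libraries did not overlap the others, and the difference was 0.85 (SE 0.11) from MM.1s and 1.42 (SE 0.11) from RPMI8226, with limma adjusted p of 4.02e-05 and 4.47e-07. The kinase MAP2K1 was lower (14.7 ± 3.03 FPKM in KMS18, 27.1 ± 1.89 in MM.1s, 48.2 ± 0.706 in RPMI8226), and so was the receptor adaptor FRS2 (1.38 ± 0.146, 2.44 ± 0.328 and 2.06 ± 0.222 FPKM), with a highest limma adjusted p of 0.00914. FRS2 lost its call with only the Vec and Gapdh shRNA libraries. Of 28 feedback regulators and immediate targets of MAP kinase signalling, 19 passed the filter, 2 were higher and 5 lower in KMS18, where 3 of the 19 averaged under 1 FPKM. After CCND1, the lower genes with the largest differences in that list were DUSP5 and DUSP4, phosphatases that switch off MAP kinases, while the phosphatase DUSP7 was higher. DUSP5 was at 7.66, 11.5, 14.5 and 3.82 FPKM in KMS18, 76.7, 127, 79.992 and 44.2 in MM.1s and 46.6, 48, 39.6 and 21.3 in RPMI8226, and DUSP4 at 2.84, 4.05, 5.14 and 2.63 FPKM in KMS18, 23.3, 28.9, 25.6 and 21.5 in MM.1s and 10.3, 10.8, 8.50 and 11.2 in RPMI8226. Both were lower in every KMS18 library than in any other library, with differences of -2.01 and -1.29 from the nearer line (highest limma adjusted p = 1.65e-05). Among 14 receptor tyrosine kinases tested of 54 listed, the collagen receptor DDR2 (8.23 ± 1.25 FPKM in KMS18 against 0.470 ± 0.296 and 0.591 ± 0.119) and the ephrin receptor EPHA6 (2.99 ± 0.346 against 0.0838 ± 0.0760 FPKM in MM.1s and 0 in RPMI8226) were higher with FGFR3, and 4 were lower. In KMS18, 7 of the 14 averaged under 1 FPKM. These 3 higher genes passed the filter only through KMS18, as their mean over the other 8 libraries was under 1 FPKM.

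WHSC1, the second gene of the FGFR3 translocation, was measured at 33.3, 33.2, 37 and 36.7 FPKM in KMS18, 19.6, 16.7, 14.9 and 12.9 in MM.1s and 8.86, 9.28, 8.68 and 9.61 in RPMI8226. KMS18 was highest in every library, but unlike FGFR3 the gene was expressed in all lines: the fold was 2.19 over MM.1s and 3.85 over RPMI8226. The difference was 1.10 (SE 0.11) from MM.1s and 1.83 (SE 0.11) from RPMI8226, with limma adjusted p of 7.88e-06 and 7.68e-08. Of 21 H3K36 and H3K27 methylation genes tested, 4 were higher and 1 lower in KMS18, with medians of 0.07 and 0.17. WHSC1 was the only one of these 5 that differed by at least 1 from both lines, and the lysine methyltransferase SMYD2 followed with 19.7 ± 3.65 FPKM against 10.2 ± 2.03 and 12.2 ± 2.27.

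Around FGFR3, differences were small beside that of FGFR3 itself. Of the 10 annotated genes on each side of it on chromosome 4, 15 passed the filter, 7 were higher in KMS18 than in both lines and 0 lower, with medians of 0.23 from MM.1s and 0.79 from RPMI8226. Beside WHSC1 these were LETM1, a mitochondrial ion exchanger, TMEM129, a ubiquitin ligase of the endoplasmic reticulum, SLBP, which binds histone messenger RNA, and MAEA, CTBP1 and C4orf48. LETM1 was at 27.7, 30.8, 22.9 and 33.1 FPKM in KMS18, 20.7, 20.005, 13.6 and 17.4 in MM.1s and 9.02, 10.6, 7.43 and 11.4 in RPMI8226, and TMEM129 at 50.3, 55.6, 55.5 and 48.9 FPKM in KMS18, 33.1, 30.2, 38.1 and 34.6 in MM.1s and 19.3, 18.1, 20.043 and 21 in RPMI8226. In both, no KMS18 library fell within the range of the other lines, and the differences were 0.65 and 0.62 from MM.1s and 1.49 and 1.38 from RPMI8226 (highest limma adjusted p = 0.000103). TACC3, the gene next to FGFR3 on the other side, ranged from 51.9 to 59 FPKM in KMS18, 54.7 to 75.1 in MM.1s and 25.9 to 31.6 in RPMI8226 and passed against RPMI8226 alone. The calls of MAEA, CTBP1 and C4orf48, with differences from MM.1s of 0.25, 0.23 and 0.60, were lost when single libraries were left out.

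**Figure D3:**
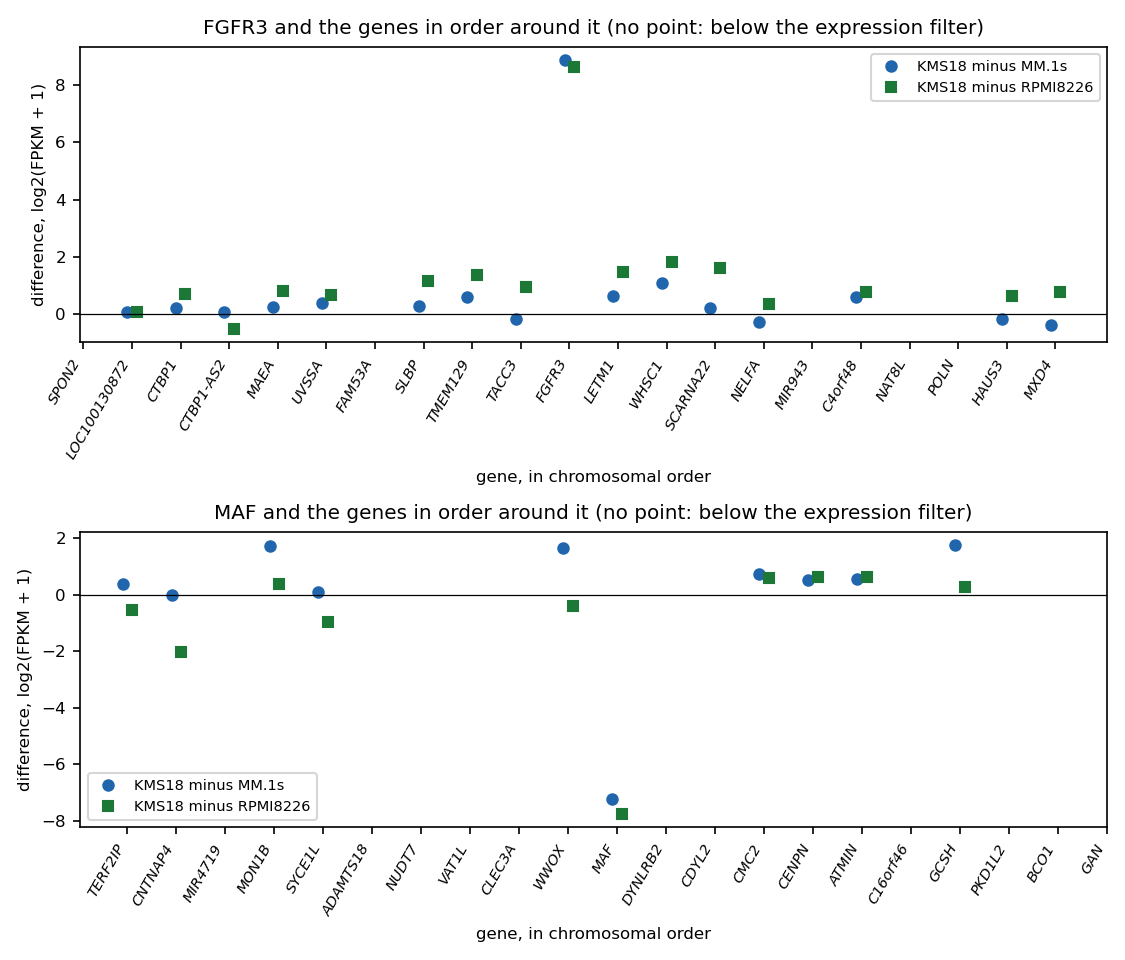
Differences of KMS18 from MM.1s (circles) and from RPMI8226 (squares) in log2(FPKM + 1), for the 10 annotated genes on each side of FGFR3 (top) and MAF (bottom) in chromosomal order. FGFR3 and MAF stand out by more than 7 units, and the tested genes beside them lie between -2.03 and 1.83.

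Most genes of a list linked to MAF in myeloma were lower in KMS18. Whether the lower MAF level was the reason was not tested. Of 7 genes that earlier work linked to MAF in myeloma, 6 passed the filter, and these 6 were lower in KMS18 than in both lines by at least 1, with median differences of -3.06 and -2.54 (-3.07 and -2.54 with genes at 0 set to a floor of 3 reads). NUAK1 and CX3CR1 passed the filter only through the other lines. The list was chosen with earlier results of these data known, so its direction is no independent evidence. ITGB7, a lymphocyte homing integrin, was measured at 73.2, 96.6, 119 and 44.9 FPKM in KMS18, 1348, 1591, 1373 and 1115 in MM.1s and 783, 796, 625 and 553 in RPMI8226. CCR1, a chemokine receptor, was at 4.30, 4.36, 5.07 and 3.61 FPKM in KMS18, 126, 142, 75 and 68.7 in MM.1s and 53.4, 47.7, 39.8 and 49.2 in RPMI8226. In both genes the highest KMS18 library lay well below the lowest of the other lines. The difference in ITGB7 was -4.08 (SE 0.16) from MM.1s and -3.10 (SE 0.16) from RPMI8226, with limma adjusted p of 3.34e-09 and 1.47e-08, and that in CCR1 was -4.22 (SE 0.18) from MM.1s and -3.18 (SE 0.18) from RPMI8226, with limma adjusted p of 5.16e-09 and 2.65e-08. CCND2, the D-type cyclin, was lower but clearly expressed in KMS18: it was at 22.8, 22.8, 26.7 and 25 FPKM, against 96.2, 102, 117 and 97.8 in MM.1s and 57.1, 62.5, 70.2 and 59.9 in RPMI8226. DEPTOR, an inhibitor of the growth kinase mTOR, was at 23.6, 32, 30.8 and 20.7 FPKM in KMS18, 173, 205, 165 and 174 in MM.1s and 112, 112, 113 and 90.2 in RPMI8226. Neither overlapped, and their differences from the nearer line, RPMI8226, were -1.32 (SE 0.06) and -1.97 (SE 0.10; limma adjusted p = 6.92e-09 and 1.11e-08). The kinase NUAK1 was at 0 in KMS18 and at 11.6, 10.2, 5.76 and 12 FPKM in MM.1s and 2.17, 2.62, 2.25 and 3.62 in RPMI8226. The fractalkine receptor CX3CR1 had reads in 1 KMS18 library only and was at 4.23, 7.34, 6.83 and 2.56 FPKM in MM.1s and 188, 177, 155 and 166 in RPMI8226, a wide difference between the MAF-expressing lines themselves. The seventh gene, the neurotrophin receptor NTRK2, did not pass 0.483 FPKM in any library.

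MAF was the only member of its family that was lower in KMS18 than in both lines. Of 13 MAF family and partner genes, 9 passed the filter, and NFE2L1 and NFE2L2, bZIP factors of the stress response, were higher. NFE2L2 averaged 18.2 ± 1.52 FPKM in KMS18, 11.8 ± 2.10 in MM.1s and 11.9 ± 0.912 in RPMI8226. The small MAF proteins MAFF, MAFG and MAFK did not separate KMS18 from both lines. MAFG averaged 28.4 ± 2.75 FPKM in KMS18, 20.7 ± 3.61 in MM.1s and 25.4 ± 1.58 in RPMI8226, and MAFK 8.23 ± 0.341, 7.91 ± 0.691 and 20.5 ± 1.35, lower than in RPMI8226 alone (-1.22, SE 0.09, limma adjusted p = 3.09e-07). Of the 10 annotated genes on each side of MAF, 9 passed the filter, 4 were higher in KMS18 than in both lines (MON1B, CMC2, CENPN and ATMIN) and 0 lower. WWOX, the large gene next to MAF in which such translocations are known to break, was at 6.11, 5.97, 7.28 and 5.36 FPKM in KMS18, 1.22, 0.977, 1.14 and 1.73 in MM.1s and 7.91, 7.95, 8.94 and 9.21 in RPMI8226. KMS18 lay above MM.1s and below RPMI8226 in every library.

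A MAF recognition core, TGCTGAC on either strand, was searched in RefSeq promoter windows of 300 bases (250 before to 50 after a start; GRCh38.p14). It occurred in 0 of the 5 MAF-linked genes with a window. It was found in 4.2% of all 27305 windows and in 3.17% of the 9016 of genes tested, in 3.48% of 489 for genes lower by at least 1 in KMS18 and in 4.25% of 353 for genes higher by at least 1. These are matches of letters and say nothing of binding.

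D-type cyclins and their inhibitors split by line. Of 21 cyclin, CDK and inhibitor genes, 20 passed the filter, and 8 were higher and 5 lower in KMS18. In KMS18, 2 of the 20 averaged under 1 FPKM, and 1 did so in the other 8 libraries. CCND1 was at 0.0706, 0, 0 and 0.0417 FPKM in KMS18, against 5.94, 6.73, 2.96 and 4.37 in MM.1s and 8.26, 9.28, 5.53 and 11.1 in RPMI8226. CCND3 was at 16.7, 19.4, 20.7 and 18 FPKM in KMS18, 16.6, 16.2, 17 and 14.6 in MM.1s and 9.63, 9.17, 10.8 and 10.2 in RPMI8226. In KMS18 CCND1 was thus near 0, while CCND2 and CCND3 averaged 24.3 and 18.7 FPKM, values that are per length. CCND3 differed from RPMI8226 (0.84, limma adjusted p = 4.46e-06) and missed the threshold against MM.1s (0.20, limma adjusted p = 0.0584). CDKN2C, which encodes p18, an inhibitor of the G1 cyclin-dependent kinases, was at 61.6, 51.7, 60.7 and 51.8 FPKM in KMS18 and at 0 in all 8 other libraries, at least 1451-fold higher than in MM.1s and 1578-fold higher than in RPMI8226. FAF1, an adaptor of FAS signalling and the tested gene next to CDKN2C on chromosome 1, shared the pattern: 29.7, 26.6, 22.2 and 29.3 FPKM in KMS18, 0.128, 0.227, 0.298 and 0.373 in MM.1s and 0 in RPMI8226. CDKN2A, which encodes the inhibitors p16 and p14ARF, was at 86.6, 76.1, 80.7 and 87.1 FPKM in KMS18, 0.169, 0, 0 and 0.141 in MM.1s and 73.6, 67.6, 67.5 and 64.5 in RPMI8226. It thus set MM.1s apart from both others, and its difference from RPMI8226, 0.27 (SE 0.08, limma adjusted p = 0.00881), lost its call with a pseudocount of 0.1 and with only the Vec and Gapdh shRNA libraries. The partner kinase CDK4 was higher (144 ± 18.4 FPKM against 65.1 ± 5.07 and 85.9 ± 6.47), as were the S phase cyclins CCNE2 (21.3 ± 4.93 against 3.96 ± 1.15 and 3.50 ± 0.653) and CCNE1 (27.4 ± 3.19 against 18.7 ± 4.28 and 3.25 ± 0.777). The inhibitors CDKN1B (49.2 ± 2.49 FPKM against 104.9 ± 10.4 and 72.9 ± 3.64) and CDKN1C (0.591 ± 0.341 against 2.89 ± 1.20 and 9.66 ± 1.15) were lower, with a highest limma adjusted p of 0.000629 over these 5 genes.

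Regulators of NF-kB, the survival pathway of plasma cells, were called in both directions, 7 of 24 tested higher and 6 lower in KMS18, where 4 of the 24 averaged under 1 FPKM. The inhibitors of the noncanonical branch gave the widest contrasts. BIRC2, a ubiquitin ligase (cIAP1) of that complex, was at 0 in all KMS18 libraries and at 13.3, 12.9, 12.9 and 16.6 FPKM in MM.1s and 13.4, 14.9, 13.1 and 13.3 in RPMI8226. BIRC3 (cIAP2), also on chromosome 11, was at 0 in all KMS18 libraries, at 24.2, 26, 40.5 and 28.3 FPKM in MM.1s and at 0.928, 0.532, 1.60 and 1.73 in RPMI8226. No KMS18 read fell in either gene; 3 reads over the 4 libraries would be 0.0304 FPKM for BIRC2 and 0.0187 for BIRC3, so BIRC2 was at least 458-fold lower than in MM.1s and 450.4-fold lower than in RPMI8226. TRAF3, their partner in degrading the kinase NIK, had the opposite order: 22, 21.4, 21.6 and 26 FPKM in KMS18, 8.45, 8.63, 11.1 and 10.9 in MM.1s and 0.932, 0.493, 1.47 and 1.53 in RPMI8226. All 4 KMS18 libraries were above all others, and the difference was 1.15 (SE 0.12) from MM.1s and 3.52 (SE 0.12) from RPMI8226, with limma adjusted p of 7.60e-06 and 5.29e-10. CD40, a receptor that recruits these proteins, was at 0 in KMS18 and at 1.42 to 3.13 FPKM in MM.1s and 0.812 to 1.49 in RPMI8226. Among 13 BCL2 family genes tested, 2 were higher and 3 lower. The pro-apoptotic BCL2L11 (BIM) was at 6.62, 8.09, 6.46 and 12.6 FPKM in KMS18, 42.4, 40.3, 34.1 and 53.6 in MM.1s and 27.4, 28, 32.4 and 34 in RPMI8226, lower in every library (-1.77 from the nearer line). PMAIP1 (NOXA), also pro-apoptotic, was at 42.8, 40.3, 50.7 and 39 FPKM in KMS18, 7.66, 4.78, 7.94 and 5.41 in MM.1s and 13.4, 11.7, 13.8 and 14.9 in RPMI8226, higher in every library (1.61; highest limma adjusted p of both genes = 2.00e-07).

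Antigen presentation genes were higher in KMS18. Of 13 HLA class II genes and regulators, 8 passed the filter, these 8 were higher than in both lines and 6 were so by at least 1, with median differences of 1.59 and 2.77. In 4 of the 8 the mean of the other 8 libraries was under 1 FPKM. These passed the filter only through KMS18 and had to be higher there than in that mean. The 5 members below the filter did not pass 3.58 FPKM in any library. HLA-DRA, the alpha chain of HLA-DR, was measured at 60.5, 62.1, 67.2 and 70.7 FPKM in KMS18, 9.46, 9.27, 28.3 and 8.10 in MM.1s and 0.435, 0.463, 0.815 and 0.649 in RPMI8226. KMS18 was highest throughout, RPMI8226 lowest, and in MM.1s the CD28 shRNA library stood above the other 3. The difference was 2.34 (SE 0.23) from MM.1s and 5.38 (SE 0.23) from RPMI8226, with limma adjusted p of 5.39e-06 and 3.80e-09. HLA-DPA1, an alpha chain of HLA-DP, was at 12.9, 13.3, 13.4 and 9.83 FPKM in KMS18, 2.37, 2.80, 6.81 and 1.14 in MM.1s and at most 0.0206 in RPMI8226. The beta chains HLA-DRB5 and HLA-DRB1 averaged 10.5 ± 1.48 and 4.72 ± 1.10 FPKM in KMS18 and 0.802 ± 0.579 and 0.893 ± 0.761 in MM.1s, but they are near-identical copies between which reads may be split, so their separate levels are uncertain. The gene length used also differed, 1362 bases for HLA-DRB5 and 8252 for HLA-DRB1. HLA-DRB1 thus held more reads per KMS18 library, 182 to 294 against 65 to 103, at a lower FPKM. Long lengths, such as 8968 bases for HLA-DRA and 15485 for HLA-DPA1, lower FPKM in all lines alike. They also shrink differences on the log2(FPKM + 1) scale. HLA-DMA, which loads peptides, was at 5.63, 6.13, 4.69 and 7.33 FPKM in KMS18, 0.889, 1.13, 3.30 and 0.856 in MM.1s and 0.159 to 0.318 in RPMI8226. CD74, the invariant chain, was abundant everywhere, at 1013, 1023, 1028 and 1226 FPKM in KMS18, 588, 729, 933 and 576 in MM.1s and 154, 134, 161 and 161 in RPMI8226. CIITA, the factor that switches these genes on, was at 7.56, 5.53, 6.69 and 13.2 FPKM in KMS18, 3.61, 5.02, 8.09 and 3.34 in MM.1s and 0.307, 0.176, 0.524 and 0.321 in RPMI8226. It overlapped between KMS18 and MM.1s, and its difference from MM.1s (0.62, SE 0.25, limma adjusted p = 0.0471) lost its call when any 1 of 8 libraries was left out. It was 0.32 without the KMS18 CD86 library and 0.37 without the MM.1s CD86 library. Over HLA class I presentation, 7 of 17 genes were higher and 0 lower, led by HLA-F, HLA-B and HLA-C, of which HLA-B averaged 48 ± 3.34 FPKM in KMS18, 22.3 ± 4.09 in MM.1s and 26.7 ± 1.30 in RPMI8226.

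Class II promoters share the Y box, an inverted CCAAT element that NF-Y binds, and the windows are shown because these genes were higher together in KMS18. The letters CTGATTGG, on either strand, were searched in the RefSeq promoter windows; 4 of 11 class II genes with a window (36.4%) held them, beside 4.16% of all 27305 windows and 5.79% of the 9016 of genes tested. The matches in tested genes lie on the minus strand of chromosome 6 in GRCh38.p14, at chr6:32530364-32530389, chr6:32589881-32589906 and chr6:32953163-32953188, and are printed 5′ to 3′ with the motif in capitals.
HLA-DRB5: actcagatgCTGATTGGttctccaac
HLA-DRB1: actcagatgCTGATTGGttctccaac
HLA-DMA: tacgcttctCTGATTGGtttagacaa
The windows of HLA-DRB5 and HLA-DRB1 were identical over these 26 bases. A match is a description of the reference, not a measured site.

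Cancer-testis antigens, many of them X-linked genes normally restricted to the germ line, included 3 of the 12 leading genes. Of 27 listed genes, 24 were in the table, 9 passed the filter, 6 were higher and 1 lower in KMS18, with medians of 2.63 and 2.63 (2.51 and 2.52 with genes at 0 set to the floor). For 5 of the 9 the other 8 libraries averaged under 1 FPKM, so these passed only through KMS18. CTAG2 was at 216, 217, 194 and 193 FPKM in KMS18, 0 in MM.1s and 1.68, 3.22, 1.08 and 1.17 in RPMI8226, and its near copy CTAG1B at 38.8, 35.6, 34.1 and 32.1 in KMS18, 0 in MM.1s and 1.68, 1.07, 0.715 and 0.972 in RPMI8226. MAGEA6 and MAGEA3, also close copies, averaged 69.5 ± 8.99 and 46.4 ± 3.41 FPKM in KMS18 and did not pass 1.11 and 0.414 FPKM elsewhere. SSX1 and SSX6, consecutive on the X chromosome among the genes tested, averaged 5.27 ± 0.989 and 24.7 ± 5.28 FPKM and were at 0 in the other lines. The split of reads within each of these pairs is uncertain.

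Among 24 plasma cell surface genes tested, 4 were higher and 8 lower in KMS18, where 4 of the 24 averaged under 1 FPKM. The lower ones included the shRNA targets CD28 and CD86. Their differences were -0.46 and -0.62 from MM.1s and -0.64 and -1.28 from RPMI8226. In both genes KMS18 libraries overlapped those of another line. CD86 lost its call with only the Vec and Gapdh shRNA libraries. TNFRSF17 was measured at 426, 471, 395 and 377 FPKM in KMS18, 163, 156, 129 and 99.1 in MM.1s and 40.5, 52.2, 36.4 and 31.2 in RPMI8226. The 3 lines did not overlap in it, KMS18 being highest, and the difference was 1.62 (SE 0.09) from MM.1s and 3.37 (SE 0.09) from RPMI8226, with limma adjusted p of 4.29e-08 and 7.78e-11. CD38, an antibody target, was at 3.15, 3.56, 6.83 and 1.92 FPKM in KMS18, 7.77, 9.84, 25.3 and 9.63 in MM.1s and 14.4, 11, 15.7 and 11.6 in RPMI8226. Its KMS18 libraries were the lowest, though the highest of them came near the lowest of MM.1s; the difference was -1.49 (SE 0.20) from MM.1s and -1.62 (SE 0.20) from RPMI8226, with limma adjusted p of 5.60e-05 and 2.19e-05. CD70, a ligand of the TNF family, averaged 10.6 ± 2.82, 52.1 ± 18.4 and 27.5 ± 7.69 FPKM. SDC1 was at 141, 175, 181 and 59.7 FPKM in KMS18, 166, 178, 191 and 69.9 in MM.1s and 65.5, 68.7, 60.5 and 35.8 in RPMI8226. It was lowest in the CD86 shRNA library of each line, and the difference between KMS18 and MM.1s did not pass (-0.14, limma adjusted p = 0.296).

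Of 10 integrins and of 20 other adhesion molecules tested, 50% each separated KMS18, beside 38.9% of all genes tested. Of 10 integrins tested, 2 were higher and 3 lower: ITGB5, a partner of the alpha V chain, was at 1.84, 2.99, 4.25 and 1.80 FPKM in KMS18, 56.9, 59.2, 89.8 and 68.7 in MM.1s and 39.6, 42.2, 47.7 and 41.8 in RPMI8226, and ITGA3, a laminin receptor chain, averaged 11 ± 1.04, 3.50 ± 1.39 and 3.61 ± 0.744 FPKM. ITGB5 was thus low and ITGA3 high in KMS18, with no overlap in either (highest limma adjusted p = 6.53e-06). Among 20 other adhesion molecules tested, 7 were higher and 3 lower, and 3 of the 20 averaged under 1 FPKM in KMS18. EPCAM, an epithelial adhesion molecule, was at 201, 231, 219 and 159.8 FPKM in KMS18, 0 in MM.1s and 62.4, 63.1, 65.8 and 56.6 in RPMI8226. ICAM3, an adhesion ligand of leukocytes, averaged 16 ± 1.10 FPKM against 53.6 ± 10.4 and 81.3 ± 4.25. Among 12 chemokine and receptor genes tested, 2 were higher and 4 lower, and 5 of the 12, CXCL16 and CX3CR1 among them, averaged under 1 FPKM in KMS18. CCR10, a homing receptor of plasma cells, was at 89.5, 92.6, 89 and 53.7 FPKM in KMS18, 17.6, 20.4, 21.7 and 8.60 in MM.1s and 1.34, 1.03, 2.87 and 1.64 in RPMI8226, while the chemokine CXCL16 averaged 0.132 ± 0.0944, 9.25 ± 1.34 and 12.9 ± 2.18.

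Of 13 plasma cell transcription factors tested, ELL2, an elongation factor of antibody secretion, was higher (72.1, 74, 63.4 and 64.3 FPKM in KMS18, 10.2, 13.4, 12.9 and 12.2 in MM.1s, 5.42, 6.26, 6.84 and 7.10 in RPMI8226) and 1 was lower. Of 21 unfolded protein response genes, 1 was higher (the kinase EIF2AK3, 50.1 ± 7.01 FPKM against 23 ± 2.49 and 9.18 ± 0.732) and 2 lower. In the Notch pathway 1 of 13 was higher and 6 lower, and 6 of the 13 averaged under 1 FPKM in KMS18. NOTCH1 averaged 2.56 ± 0.863, 7.32 ± 2.78 and 14.4 ± 2.08 FPKM, and the factor HES6 1.19 ± 0.746, 51.2 ± 14.7 and 5.50 ± 1.12. Of 18 interferon response genes 1 was higher and 4 lower, of 14 genes of IL-6 signalling 2 and 4, of 9 Wnt genes 3 and 2, of 11 B cell genes 4 and 1, of 7 APOBEC deaminases 0 and 3, and of 12 translocation targets of myeloma 2 and 6, each given as higher and then lower. Of these, 6 interferon, 1 IL-6, 2 Wnt, 4 B cell, 3 APOBEC and 4 translocation genes averaged under 1 FPKM in KMS18, and 2 Wnt, 1 B cell and 1 translocation gene did so in the other 8 libraries. B cell genes included SPIB, an ETS factor, at 9.13, 9.12, 6.20 and 10.1 FPKM in KMS18 against 0.166 to 1.39 in MM.1s and 0.0824 to 0.453 in RPMI8226. Of 26 ribosomal protein genes 10 were higher and 1 lower, led by RPL8, on chromosome 8 (3439.8 ± 185 FPKM against 1405 ± 94 and 1523 ± 25.1).

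**Figure D4:**
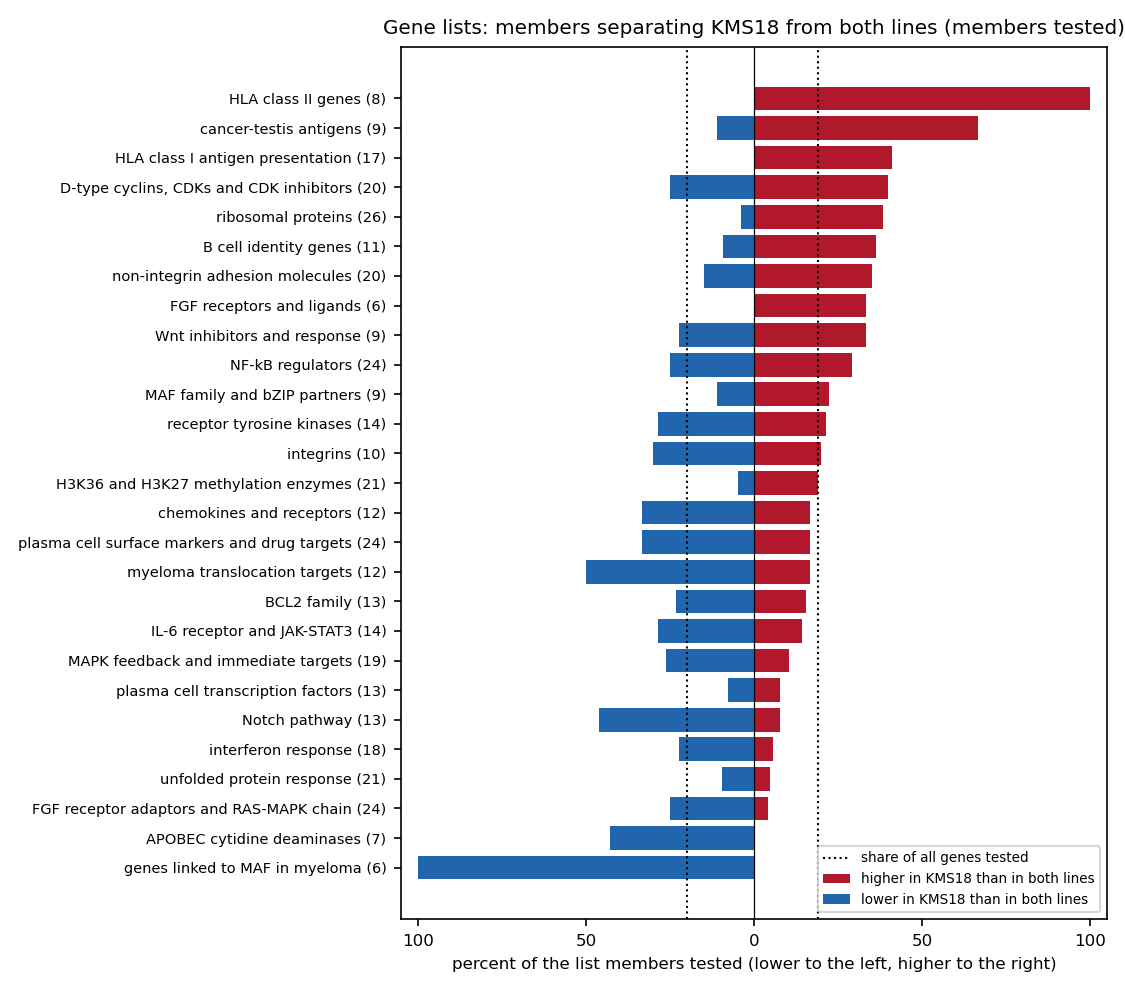
Percent of the tested members of gene lists with at least 6 tested that were higher (right, red) or lower (left, blue) in KMS18 than in both other lines, with the number tested in brackets and dotted lines at the shares of all genes, 19.1% and 19.8%. HLA class II and MAF-linked genes lie at the ends, with the limits on membership given in the text.

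Differences were not spread evenly over the chromosomes. RefSeq gave a chromosome to 99.8% of the genes tested. On chromosome 22, 0.690% of 290 genes were higher and 54.8% lower in KMS18 than in both lines, beside 19.1% and 19.8% over all genes, and the median differences were -0.82 from MM.1s and -0.61 from RPMI8226. On chromosome 8, 55.4% of 390 genes were higher and 12.3% lower (medians 0.60 and 0.87), and on chromosome 13, 52.7% of 188 were higher and 6.91% lower (medians 0.51 and 0.65). The same chromosomes stood out within each shRNA: the median of KMS18 minus the mean of the 2 other lines was -0.72, -0.68, -0.67 and -0.67 on chromosome 22 and 0.61, 0.62, 0.63 and 0.58 on chromosome 13 for Vec, Gapdh, CD28 and CD86. For MM.1s minus RPMI8226, the medians on these were 0.22 on chromosome 22, 0.40 on chromosome 8 and 0.04 on chromosome 13. Chromosome 4, which holds FGFR3, had medians of -0.14 from MM.1s and 0.43 from RPMI8226. Smaller shifts were seen elsewhere. On chromosome X 34.7% of 389 genes were higher and 8.74% lower (medians 0.34 and 0.19). On chromosome 6 28.5% of 544 were higher and 9.93% lower (medians 0.26 and 0.18). In the other direction, 9.08% of 573 on chromosome 7 were higher and 29.8% lower (medians -0.16 and -0.31). Genes given above lie on these chromosomes: PVALB, TCN2 and the 3 lower APOBEC deaminases on chromosome 22, FGF9 on chromosome 13, and NCALD, RPL8 and CCNE2 on chromosome 8, while DEPTOR and DUSP4, also on chromosome 8, went against its direction. HLA-DRA lies on chromosome 6, and CTAG2 and MAGEA6 lie on chromosome X. These are shares of genes that share a chromosome, with no test of the chromosome.

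**Figure D5:**
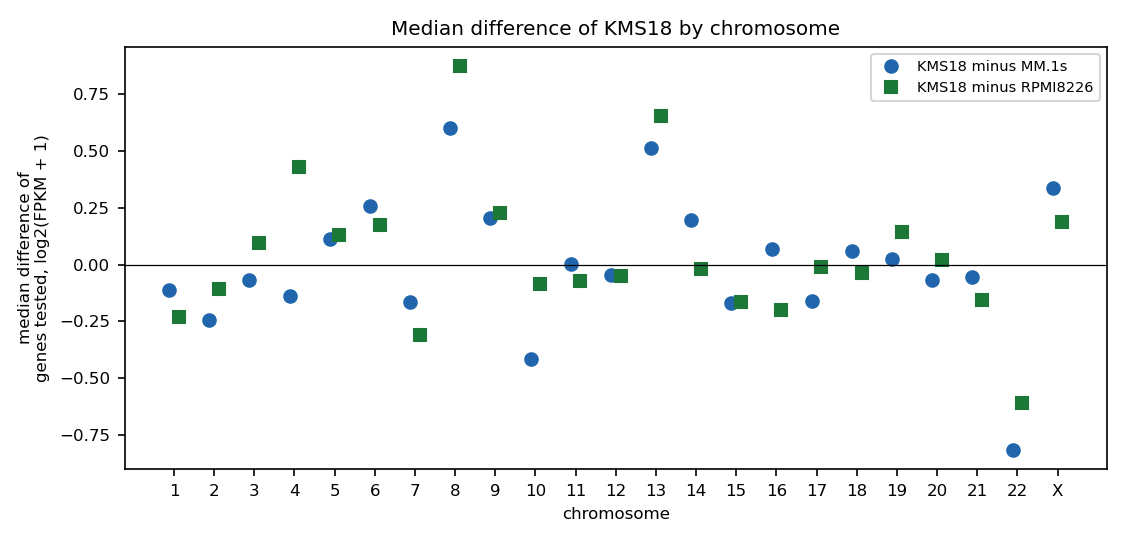
Median difference of the tested genes of each chromosome between KMS18 and MM.1s (circles) or RPMI8226 (squares), in log2(FPKM + 1). Chromosomes 8 and 13 lie above 0.5 and chromosome 22 below -0.6 in both comparisons.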

How the data were processed

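RNA from 12 libraries of KMS18, MM.1s and RPMI8226 was analysed, 4 per line. Values are FPKM per gene as deposited by the authors, from a single table, and per the submitters' processing notes the tools were edgeR 3.12.1 in R 3.2.2, TopHat2 2.0.13 and Picard, and the builds mm9, hg19 and GRCh37, with no role or order given. The strand setting is not given in the sources used here. All FPKM values gave whole reads (tolerance 0.02) when multiplied by gene length and library total, which gave the depths and the floors of 3 reads; these cover counting error only. Of low read numbers, 74.2% to 77.4% per library were even. Whether the reads of a pair were counted separately was not tested; if so, depths and floors stand for fewer molecules. The table has 23459 entries, of which 61 carry no symbol and 5307 were at 0 in all 12 libraries. Another 4 columns of per-sample values were not used.

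Log2(FPKM + 1) of the 11316 entries with a mean of at least 1 FPKM was fitted with limma 3.58.1 in R 4.3.3 (eBayes with trend), with terms for line and shRNA and 6 residual degrees of freedom. Tests were two-sided with Benjamini-Hochberg adjustment over all entries tested, at 0.05. In data simulated for this comparison over 11316 genes, 81% of 100 genes changed by 1 and 100% of 100 genes changed by 2 (log2) were called. The simulation set a fixed spread that was not taken from these data and gave MM.1s and RPMI8226 equal levels. It changed no other gene and drew the changed genes from the better covered ones. These shares may therefore not hold in the real data. Figures and summaries used Python 3.11.15.

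The members and gene lists were chosen with earlier results of these data known. Named genes are a fixed set (the markers, D-type cyclins, ITGB7, WHSC1 and the shRNA targets), the 12 genes higher and 12 lower with the largest difference from the nearer line and no overlap, up to 4 per list by that order, all members of the FGF receptor, MAF, cyclin and translocation lists, and 10 neighbours on each side of FGFR3 and MAF. Small RNA genes and sex-specific genes are not named, and some items are not reported here. CD68, CD8B, CD74, CIITA, HLA-DMA, FAF1, SSX1 and SSX6, and the Y box letters, were chosen after values were seen. Gene order, chromosomes and promoters came from RefSeq (GRCh38.p14), which differs from the builds of the files, so coordinates are given only for promoter windows, in that build. Alternatives to the pseudocount, filter, scaling, test, block and set of libraries are given at the end.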

Additional observations from a re-analysis of the deposited data

Results flagged for a closer look

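In each line of 4 libraries, a library was picked out where its gap to the nearest other library exceeded the 95% critical share of the whole range by Dixon (groups of 4). Of 277 groups of 4 with a mean of at least 1 FPKM, 23 held such a library, and chance gives about 1 in 20.

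The 2 GAPDH values are those of the Gapdh shRNA libraries, at 133 FPKM in KMS18 and 402 in RPMI8226. In KMS18 the CD86 shRNA library stood apart for 5 genes. HLA-DRB1 was at 6.37 FPKM there against 4.16 to 4.20 in the other 3, CD74 at 1226 against 1013 to 1028 and TRAF3 at 26 against 21.4 to 22, all higher. CCR10 was at 53.7 FPKM against 89 to 92.6 and HLA-DPA1 at 9.83 against 12.9 to 13.4, both lower. These 5 genes kept their direction and call against both other lines without that library. CTBP1 was at 69.9 FPKM in the KMS18 CD28 library.

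In MM.1s the CD28 shRNA library stood apart most often. HLA-DRA was at 28.3 FPKM there against 8.10 to 9.46 and HLA-DMA at 3.30 against 0.856 to 1.13, so the nearest MM.1s library to KMS18 in these class II genes is that one. CD38 was at 25.3 FPKM, CD3E at 3.91, and TCN2 at 59.6, all above the other 3 MM.1s libraries, and PRDM1 at 44.7 and TRIM35 at 10.3 were below them. The MM.1s CD86 library held 16.6 FPKM of BIRC2 and 57.5 of CDK4, and the MM.1s Vec library 63.7 of CRYBB1.

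In RPMI8226 the CD86 library held 90.2 FPKM of DEPTOR and 978 of PVALB, the lowest of their line. The Gapdh library held 7.17 FPKM of HES6 and 1.53 of ZXDB, and the CD28 library 11.4 of CDKN1C.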

How the results depend on the processing

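Leaving out 1 library at a time moved no count by more than 1.5 times. Genes higher and lower than in MM.1s ranged from 3184 to 3494 and from 3620 to 3904, than in RPMI8226 from 3702 to 4054 and from 3688 to 4028, and than in the mean of both from 3410 to 3763 and from 3800 to 4071. Genes separating KMS18 ranged from 1924 to 2124 higher and 2038 to 2193 lower, and by at least 1 from 517 to 552 and from 633 to 654. With a mean of at least 5 FPKM, for which fewer genes are tested, genes lower than in the mean of both lines were 2704, and those separating KMS18 by at least 1 were 320 higher and 422 lower. With limma-voom on recovered reads, which adds no 1 to each value, 677 were higher and 997 lower by at least 1, and with a pseudocount of 0.1, 660 and 963. Of the 1174 genes separating KMS18 by at least 1, 1157 to 1174 still separated it, by any size, in settings that tested them all. Deviations of libraries with the same shRNA correlated at 0.0733 to 0.338 (12 pairs) and others at -0.206 to 0.128 (36 pairs), so the pairing by shRNA is not established for every pair. Without the replicate block, 1930 genes separated KMS18 as higher and 2046 as lower, and 528 and 641 by at least 1.

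Directions changed for differences from the nearer line that were close to 0: MAFK was -0.048 with only the Vec and Gapdh shRNA libraries, FGFR4 was 0.095 with only the Vec and Gapdh shRNA libraries and -0.26 to 0.029 with 1 library left out, above 0 without the KMS18 CD28 or the MM.1s Gapdh library, and GAPDH was -0.53 to 0.031, above 0 without its KMS18 knockdown library. FGF2 (0.52) passed with only the Vec and Gapdh libraries, where FRS2 (-0.33) and MON1B (0.34) lost their calls, and CCND3 passed after rescaling (0.22) and without the Vec library of KMS18 or MM.1s (0.25 each). A total of 4000275 to 5900955 reads per library limits genes under about 1 FPKM, which were not tested.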

Other observations

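Several genes near 0 in KMS18 or near 0 only in the other lines were consecutive in the order of tested genes along a chromosome. Genes below the filter may lie between them. The rule was set after the values were seen. It asked for a mean under 0.5 FPKM in KMS18, or in each of MM.1s and RPMI8226. Every library of the other side had to hold at least 2 FPKM. Of 11069 tested genes with a position, 134 met it as near 0 in KMS18 and 60 as near 0 in both MM.1s and RPMI8226. Consecutive pairs near 0 in KMS18 included PVALB with NCF4, a subunit of the phagocyte oxidase (0.252 FPKM in KMS18, 21.4 in MM.1s, 61.9 in RPMI8226), and CRYBB1, a lens crystallin (0.460, 79.5 and 22.5 FPKM in the same order), with the noncoding RNA MIAT, both pairs on chromosome 22. On chromosome 8, the ubiquitin ligase TRIM35 (0, 12.5 and 7.75 FPKM) lay beside PTK2B, a focal adhesion kinase (0.0285, 80.6 and 25.1 FPKM), against the direction of that chromosome. On chromosome 5, NKD2 lay beside the potassium-chloride cotransporter SLC12A7 (0.477, 14.7 and 31.8 FPKM). Consecutive tested genes near 0 in both other lines were CREB5, a transcription factor, with CPVL, a carboxypeptidase (24.4 FPKM in KMS18, 0 and 0.0577 in the others), FAF1 with CDKN2C, CD200 with BTLA, SSX6 with SSX1, and on chromosome 19 SYT3, C19orf81 and CLEC11A, a growth factor of blood cells (3.14 FPKM in KMS18, 0 and 0.0568 in the others). BIRC2 and BIRC3, both at 0 in KMS18, did not form such a pair because BIRC3 averaged 1.20 FPKM in RPMI8226.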
